A study of Homo sapiens with 12 samples.

Results

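YAP1 and WWTR1 (the gene of the protein TAZ), the transcription factors TEAD1 and TEAD4, and the density-sensitive genes CCN1, CCN2, ANKRD1, AMOTL2, LATS2 and AXL were followed across the series. These 10 genes were taken from the table of 61541 genes by their symbols, and all 10 were among the 16768 genes with enough counts to be tested. Gene expression was measured by sequencing of total RNA, as counts per gene, in 12 libraries labelled as A549, an established line from a human lung adenocarcinoma. RNA was taken 14 days after transduction. Each of the 4 groups held 3 libraries: cells labelled NTC KO with the non-targeting guide gNTC1 (control), the same in co-culture, cells labelled TYMS KO, in which Cas9 was directed at the thymidylate synthase gene (knockout), and the same in co-culture. All groups thus went through transduction, and no drug treatment is labelled. The series text names parental A549 cells as the company in which the knockout proliferated again. The partner of the control cells, the separation of partners before lysis, and whether the knockout was 1 clone or a pool are not given in the sources used here. Nothing in the labels says that replicates came from separate cultures, so the p-values below measure the spread between these libraries, which may be technical.

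YAP and TAZ are co-activators without a DNA-binding domain of their own, and they act on genes through the TEAD factors. The Hippo kinases, MST (STK3 and STK4) and LATS (LATS1 and LATS2), phosphorylate YAP and TAZ and keep them in the cytoplasm, mostly in dense or softly attached cells, so that RNA levels of YAP1 and WWTR1 do not show how much of the protein is in the nucleus. In spread or sparse cells YAP and TAZ enter the nucleus and raise secreted matrix proteins (CCN1, CCN2), the ankyrin repeat protein ANKRD1, the receptor kinase AXL, and inhibitors that feed back on the pathway (AMOTL2, LATS2).

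The TEAD factors bind the motif GGAATG, read as CATTCC on the other strand, and its copies near the members' starts are shown because the target genes CCN1, CCN2, ANKRD1, AMOTL2 and AXL were all higher in the knockout than in the control. RefSeq promoters (build GRCh38.p14) were found for 7 of the 10 members, YAP1, WWTR1, CCN2, ANKRD1, AMOTL2, LATS2 and AXL. The table lists 10 promoters for these 7 genes, since WWTR1, AMOTL2 and AXL each have 2 starts. The 250 bases before the start held the motif on either strand in 5 of the 10. These were the promoters of YAP1, CCN2 and ANKRD1 and 1 each of AMOTL2 and AXL. Of all 35116 promoters listed, 11.9% held it. Most members are known targets of YAP and TAZ, so a share above this could be foreseen and says nothing about these libraries. In CCN2 there were 3 copies, starting 169, 104 and 95 bases before the start, and in ANKRD1 there were 2, starting 220 and 128 bases before it. The copies in AMOTL2 and AXL start 69 and 212 bases before the inner of the 2 starts of each gene. The promoters of their outer starts held no copy. By the gene positions given below, the AMOTL2 and AXL copies and the nearer ANKRD1 copy lie inside the annotated genes. For these copies "before the start" thus holds for the RefSeq start used, and which start was in use was not tested. The sequences run 5′ to 3′ along the gene's strand, with the motif in capitals: a stretch of the CCN2 promoter (chr6:131951423-131951572, minus strand), then 30 bases around each copy in ANKRD1 (chr10:90921290-90921319 and chr10:90921198-90921227, minus), YAP1 (chr11:102110273-102110302, plus), AMOTL2 (chr3:134374499-134374528, minus) and AXL (chr19:41226531-41226560, plus).
CCN2: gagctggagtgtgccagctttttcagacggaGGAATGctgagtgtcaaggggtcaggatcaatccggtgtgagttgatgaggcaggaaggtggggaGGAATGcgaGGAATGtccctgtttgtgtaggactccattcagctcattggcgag
ANKRD1 farther copy: atcaccaccaaaGGAATGgccctctcacat
ANKRD1 nearer copy: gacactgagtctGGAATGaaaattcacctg
YAP1: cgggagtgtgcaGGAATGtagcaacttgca
AMOTL2: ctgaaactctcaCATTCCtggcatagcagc
AXL: cagactttgcacCATTCCactccctccgct
Between its copies the ANKRD1 promoter also held TGATTCA, 195 bases before the start. It matches TGANTCA, a looser form of the AP-1 motif in which the centre can be any base, here T. AP-1 factors often share enhancers with TEADs, and 6.57% of all promoters held a match to this looser form. A match is a stretch of letters and was not measured as a bound site.

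TYMS stood at 90.3 to 101 CPM (counts per 1e+06 counts, after scaling of libraries by TMM, the scale of every CPM below) in the 6 libraries labelled control and at 10.7 to 21.4 CPM in the 6 knockout libraries. A549 is known for a homozygous deletion of CDKN2A with its neighbour MTAP and for a truncating mutation of SMARCA4. The libraries labelled control went against this: CDKN2A stood at 54.7 to 116 CPM there, with 4 counts in total over the 6 knockout libraries, MTAP at 43.8 to 79.5 against 0.302 to 0.647 CPM, and SMARCA4 at 159 to 202 against 10.9 to 13.5 CPM. These 3 genes were chosen after their values were seen. The epithelial marker EPCAM stood at 94.4 to 119 CPM in the libraries labelled control and at 0.149 to 0.913 CPM in the knockout. The keratins KRT8 and KRT18 were at 1265 CPM or more in every library. KRT8 was still lower in the knockout, at 2364 to 4180 CPM against 5413 to 9110 CPM. KRT18 was lower in the co-cultured knockout than in the co-cultured control (log2 -0.81, SE 0.23, edgeR adjusted p = 0.00934) and overlapped in lone cells. The other epithelial markers were lower in the knockout too: KRT19 stood at 1190 to 2142 CPM against 215 to 546 CPM, and the cadherin gene CDH1 at 45.4 to 70.8 against 15.1 to 28.1 CPM. A difference of cell line and the guide against TYMS therefore cannot be told apart in any comparison of knockout with control below, nor in the interaction, and "control" stands for "labelled control" throughout. Co-cultured and lone knockout cells share 1 label. CDKN2A had 4 counts over the 3 co-cultured and 0 over the 3 lone knockout libraries, so RNA of cells like the labelled control was at or near 0 in both. RNA of a partner without CDKN2A would not show in the CDKN2A counts. TYMS stood at 20.3 to 21.4 CPM in the lone and at 10.7 to 11.4 CPM in the co-cultured knockout libraries. The part of partner RNA was not tested. Of 5 markers each, 3 fibroblast, 4 endothelial and 4 leukocyte genes stayed under 1 CPM in every library. The summed fibroblast markers ran from 12.9 to 24 CPM in control and from 21.6 to 34.3 CPM in knockout libraries. THY1 was higher in the lone knockout than in the lone control (log2 1.41, SE 0.32, edgeR adjusted p = 0.00214). In that comparison COL1A1 (log2 0.316, SE 0.183) and PDGFRB (-0.905, SE 0.498) were not called. The summed endothelial markers stood at 2.13 to 2.79 CPM in the lone control and at 0.254 to 0.548 CPM in the lone knockout. In co-culture they stood at 1.997 to 2.79 CPM in the control and at 0.302 to 0.634 CPM in the knockout. In lone cells VWF was lower in the knockout (log2 -4.75, SE 0.501, edgeR adjusted p = 4.82e-06) and PECAM1 was not called (-1.56). The summed leukocyte markers, mostly CD14, stood at 4.07 to 6.23 CPM in the lone control, 1.84 to 4.16 in the co-cultured control, 0.797 to 0.931 in the lone knockout and 2.84 to 4.41 CPM in the co-cultured knockout. Co-culture of the knockout went with higher CD14 (log2 1.91, SE 0.35, edgeR adjusted p = 0.00563). The part of these markers in the results was not tested. Totals ran from 14921371 to 35723762 counts, and members had at least 141 counts in every library apart from ANKRD1, which had 5 to 11 counts in control libraries. Libraries of every group differed along transcript GC content: the rank correlation across genes of GC with the deviation from the group mean ran from -0.753 to 0.735 over the 12 libraries. Replicate 3 of the co-cultured knockout lay at -0.753, opposite to replicates 1 and 2 of its group (0.345 and 0.735). Some of the results that it moves are given with and without it. It was also the highest of its group for WWTR1, PTPN14, FRMD6, CRIM1, ASAP1, MYOF and TGFB2, where fold changes without it are not given.

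In lone cells, 9 of the 10 members differed between knockout and control. The target genes CCN1, CCN2, ANKRD1, AMOTL2 and AXL rose between 6.27-fold and 13.1-fold in the knockout, WWTR1, TEAD1 and LATS2 rose less, TEAD4 fell, and YAP1 showed no called difference. All 5 targets were also higher in the co-cultured knockout than in the co-cultured control. By edgeR's quasi-likelihood test (adjusted p under 0.05, adjusted by Benjamini-Hochberg over all genes), 56.6% of all genes were called in the lone comparison, 28% higher and 28.6% lower, beside 8 members higher and 1 lower. The median log2 fold change was 2.47 over the members and 0.09 over all genes tested. Groups did not overlap for 9 members and for 65.2% of all genes. In co-culture 49.4% of all genes were called, 24.1% higher and 25.3% lower, beside 5 members higher and 1 lower, and the medians were 1.28 and -0.02. Values did not overlap for 6 members and for 55.4% of all genes.

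**Figure D1:**
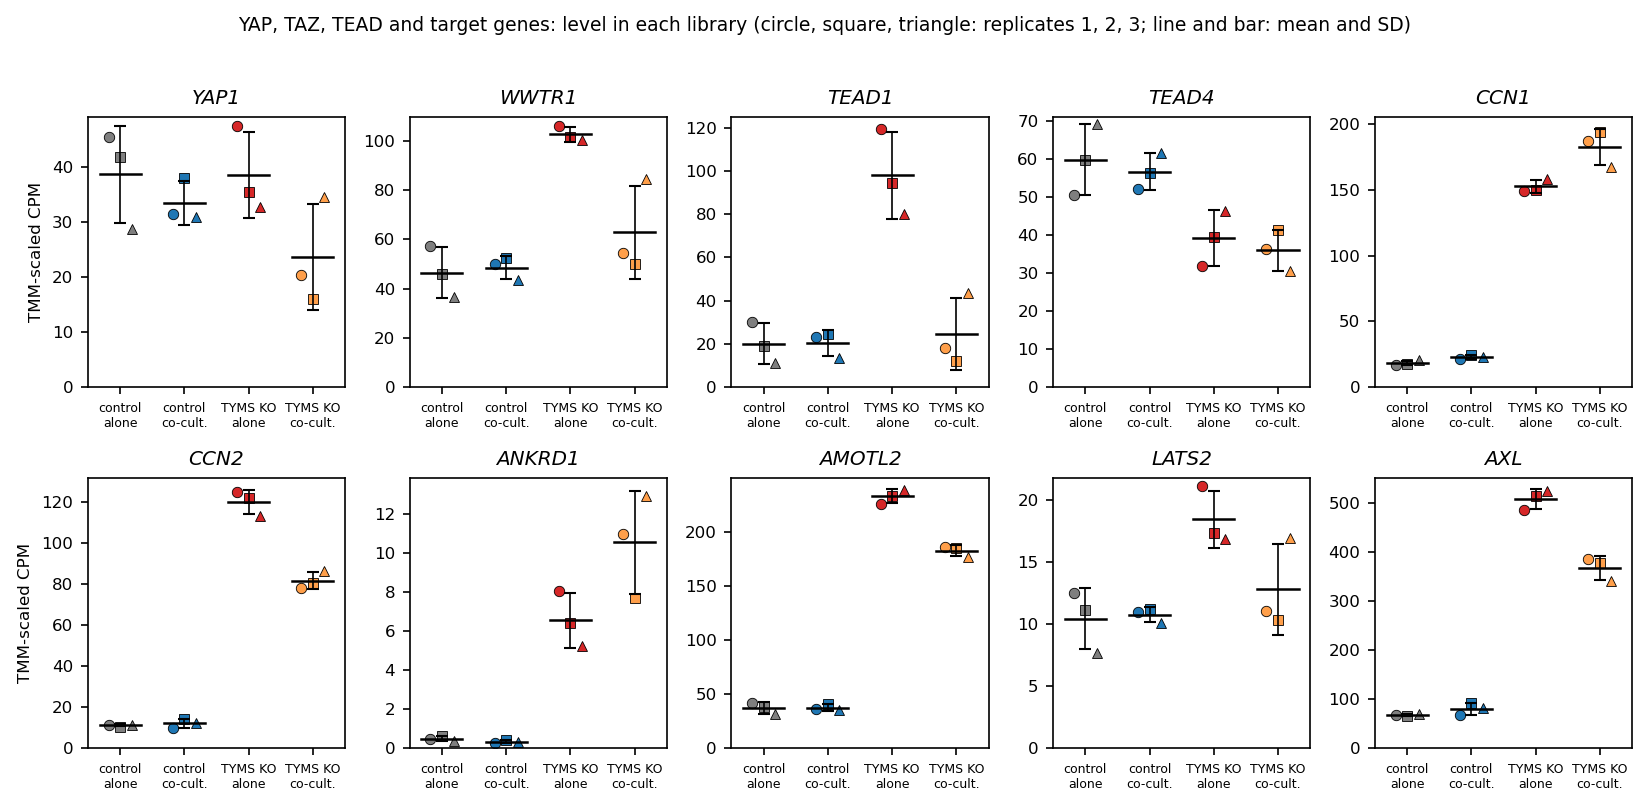
Level of each of the 10 genes (TMM-scaled CPM, linear axes from 0) in the 12 libraries. Points are replicates, and the line and bar give the mean and SD of 3 libraries per group. CCN1, CCN2, ANKRD1, AMOTL2 and AXL are far apart between control and knockout, while YAP1 overlaps. TEAD1 is high in the lone knockout, and replicate 3 is the highest of the co-cultured knockout for TEAD1, YAP1, WWTR1 and LATS2.

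YAP1 (ENSG00000137693; positions here and below are GENCODE 29 on GRCh38: chromosome 11, 102110461 to 102233423, plus strand), the first co-activator, stood at 45.4, 41.8 and 28.7 CPM in replicates 1 to 3 of the lone control and at 47.4, 35.6 and 32.8 CPM in the lone knockout. The ranges overlapped, and the log2 fold change was -0.00 (SE 0.26, edgeR adjusted p = 0.997). The sign was above 0 with library size only (0.14), and with GC offsets YAP1 was lower and called (-0.38, edgeR adjusted p = 0.0448). GC offsets remove each library's GC trend against the mean of all 12 libraries, and so also a GC trend between the groups. Under them the rank correlation of GC with the log2 fold change in this comparison went from -0.388 to 0.017. Whether the trend between the groups is technical was not tested. In the co-cultured control YAP1 stood at 31.5, 38 and 30.9 CPM. In the co-cultured knockout it stood at 20.4, 16.0 and 34.5 CPM. Replicate 3 is the highest of that group and alone reaches into the control range (log2 fold change -0.50, SE 0.26, edgeR adjusted p = 0.132). Without it the log2 fold change was -0.88 and was called (edgeR adjusted p = 0.00369), and with GC offsets it was -0.65 (edgeR adjusted p = 0.00203).

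WWTR1 (ENSG00000018408; chromosome 3, 149517235 to 149736714, minus strand), the gene of TAZ, stood at 57.1, 45.8 and 36.5 CPM in the lone control and at 106, 101 and 100.3 CPM in the lone knockout. All lone knockout libraries were above all lone controls, a rise of 2.21-fold (log2 1.14, SE 0.20, edgeR adjusted p = 0.000427). In co-culture the control stood at 49.8, 52.3 and 43.5 CPM and the knockout at 54.3, 49.9 and 84.5 CPM. These ranges overlapped, with only replicate 3 of the knockout well above the controls (log2 0.37, SE 0.20, edgeR adjusted p = 0.144). Levels per kilobase of exon were used to compare different genes. The length was that of all annotated exons of a gene joined, not of the transcript in use, and shares and orders across genes depend on it. On this scale WWTR1 made up 47.4% ± 2.04 of the summed level of YAP1 and WWTR1 in the lone control (SD, n = 3), against 66.8% ± 3.67 (SD, n = 3) in the lone knockout. YAP1 and WWTR1 differ in GC content (47.1% and 53.7%), and the part of the GC trend in this share was not tested. The share was 52.1% ± 1.83 and 67.1% ± 2.68 in the co-cultured control and knockout. The share was near equal in control libraries and above it in all knockout libraries, with no overlap.

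TEAD1 (ENSG00000187079; chromosome 11, 12674591 to 12944483, plus strand) is 1 of 4 TEAD paralogs, which bind the same motif. It stood at 30.1, 19.0 and 11.1 CPM in the lone control and at 119, 94.4 and 79.9 CPM in the lone knockout. The groups were well apart, although each spread widely, and the rise was 4.88-fold (log2 2.29, SE 0.45, edgeR adjusted p = 0.000879). In co-culture TEAD1 stood at 23.2, 24.4 and 13.7 CPM in the control and at 18.1, 12 and 43.5 CPM in the knockout. The co-cultured groups overlapped (log2 0.26, SE 0.43, edgeR adjusted p = 0.642), and the sign rested on replicate 3 of the knockout, without which the log2 fold change was -0.44 (edgeR adjusted p = 0.287).

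TEAD4 (ENSG00000197905; chromosome 12, 2959330 to 3040673, plus strand), the paralog known from trophectoderm and raised in many carcinomas, moved the other way. It stood at 50.5, 59.7 and 69.1 CPM in the lone control and at 31.8, 39.5 and 46.4 CPM in the lone knockout. It was 1.53-fold lower (log2 -0.61, SE 0.17, edgeR adjusted p = 0.00919), but with GC offsets the direction turned and was called as higher (log2 0.32, edgeR adjusted p = 0.0135). The exons of TEAD4 hold 64.1% GC, more than those of any other member. In co-culture TEAD4 stood at 52.1, 56.4 and 61.6 CPM in the control and at 36.4, 41.3 and 30.5 CPM in the knockout. All knockout libraries were below all controls (log2 -0.65, SE 0.17, edgeR adjusted p = 0.00684), and the call was lost with GC offsets (log2 -0.23, edgeR adjusted p = 0.0641).

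The other TEAD genes, TEAD2 and TEAD3, were taken with these as further members of the family. TEAD2 stood at 97.7, 131 and 151 CPM in the lone control and at 18.8, 24 and 29.5 CPM in the lone knockout (log2 -2.39, SE 0.22, edgeR adjusted p = 1.64e-06). TEAD3 stood at 38.6, 49.4 and 50.2 CPM and at 12.5, 16.1 and 19.4 CPM in the same groups (log2 -1.53, SE 0.18, edgeR adjusted p = 1.32e-05). Both were lower in the knockout in co-culture too, at log2 -1.87 and -1.16 (edgeR adjusted p = 1.34e-05 and 0.000127). TEAD2 and TEAD3 fell under every alternative setting run in both comparisons, and TEAD3 fell least with GC offsets in lone cells (log2 -0.86).

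The make-up of the TEAD pool, per kilobase of exon, therefore differed. Their summed level was 85.9 ± 14.2 CPM per kilobase in the lone control (SD, n = 3), against 40.1 ± 4.21 (SD, n = 3) in lone knockout cells. Under co-culture the sum was 77.9 ± 4.66 in the control and 34.6 ± 3.76 in the knockout (SD, n = 3 each). TEAD2 was the leading paralog of the lone control with 49.2% ± 2.52, followed by TEAD4 with 30.7% ± 0.873, TEAD3 with 17.7% ± 0.861 and TEAD1 with 2.45% ± 1.56. In the lone knockout TEAD4 led with 42.8% ± 3.61, and TEAD1 held 24.2% ± 7.45, TEAD2 19.99% ± 2.37 and TEAD3 12.99% ± 1.47. TEAD1 and TEAD2 differed there by less than their spread. In the co-cultured knockout TEAD4 again led with 45.7% ± 1.97, TEAD2 held 28.99% ± 3.57, TEAD3 18% ± 0.557 and TEAD1 7.28% ± 5.68, the last between 3.04% and 13.7%. Shares within a library do not depend on library scaling, but these genes differ in GC content (46.1% in TEAD1, 58.5% in TEAD2, 60.6% in TEAD3), and the part of the GC trend in the shares was not tested.

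**Figure D2:**
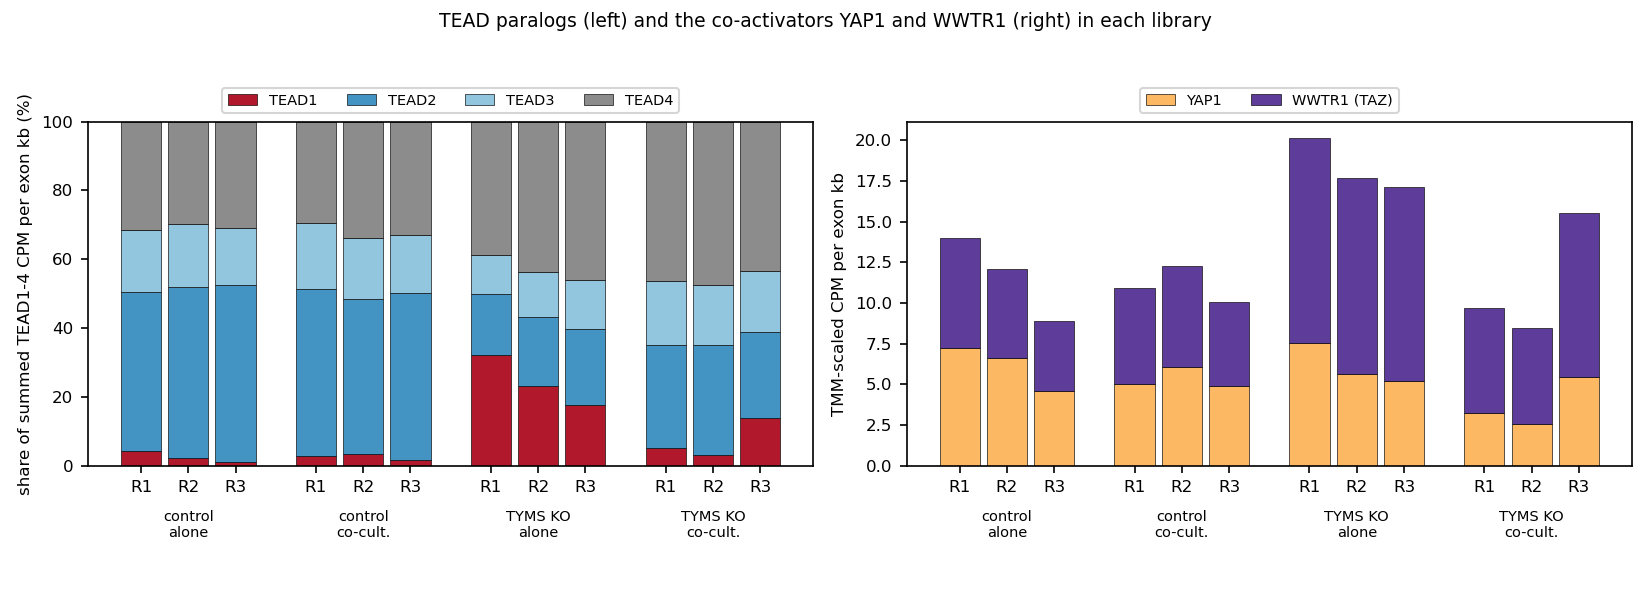
Left, share (%) of each TEAD paralog in the summed TEAD level per exon kilobase, 1 bar per library. Right, levels of YAP1 and WWTR1 in TMM-scaled CPM per exon kilobase, stacked. TEAD1 holds 1.10% to 4.15% in the lone control and 17.5% to 32.2% in the lone knockout, and TEAD2 is the largest TEAD segment in each control library.

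Among the targets, CCN1 (ENSG00000142871; chromosome 1, 85580761 to 85583962, plus strand) encodes a secreted matrix protein that binds integrins. It stood at 17.1, 17.6 and 20.5 CPM in the lone control and at 149, 150.1 and 158 CPM in the lone knockout, 8.27-fold higher (log2 3.05, SE 0.13, edgeR adjusted p = 1.64e-09). Under co-culture it stood at 21.4, 24.2 and 23.0 CPM in the control and at 187, 194 and 167 CPM in the knockout (log2 3.0, SE 0.13, edgeR adjusted p = 2.00e-09). Replicates of CCN1 lay close together, and every knockout library was far above every control.

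CCN2 (ENSG00000118523; chromosome 6, 131948176 to 131951373, minus strand), connective tissue growth factor, is the gene with the 3 motif copies printed above. It stood at 11.5, 10.6 and 11.5 CPM in the lone control and at 125, 122 and 113 CPM in the lone knockout, 10.7-fold higher (log2 3.42, SE 0.15, edgeR adjusted p = 2.01e-09). Under co-culture it stood at 9.97, 14.3 and 12.2 CPM in the control and at 78.3, 80.5 and 86.3 CPM in the knockout (log2 2.74, SE 0.14, edgeR adjusted p = 1.08e-08). The knockout libraries were again far above the controls, with the co-cultured ones below the lone ones.

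ANKRD1 (ENSG00000148677; chromosome 10, 90912096 to 90921276, minus strand) encodes a nuclear and sarcomeric ankyrin repeat protein that is a common readout of YAP activity. It stood at 0.496, 0.616 and 0.383 CPM in the lone control and at 8.04, 6.42 and 5.23 CPM in the lone knockout, 13.1-fold higher (log2 3.72, SE 0.32, edgeR adjusted p = 7.19e-07). Under co-culture it stood at 0.297, 0.421 and 0.326 CPM in the control and at 11, 7.69 and 12.9 CPM in the knockout (log2 4.88, SE 0.32, edgeR adjusted p = 7.77e-08). The size of this fold is limited by the control counts of 5 to 11.

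AMOTL2 (ENSG00000114019; chromosome 3, 134355874 to 134375479, minus strand) encodes an angiomotin family protein that holds YAP outside the nucleus. It stood at 41.6, 38.6 and 31.3 CPM in the lone control and at 226, 233 and 239 CPM in the lone knockout (log2 2.65, SE 0.14, edgeR adjusted p = 7.50e-09). Under co-culture it stood at 36.6, 40.9 and 35.5 CPM in the control and at 186, 185 and 177 CPM in the knockout (log2 2.27, SE 0.13, edgeR adjusted p = 2.72e-08). Each knockout library was above every control by more than the whole spread of either group. With GC offsets and a replicate block the log2 fold change in lone cells was 3.50.

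LATS2 (ENSG00000150457; chromosome 13, 20973032 to 21061547, minus strand), a kinase that phosphorylates YAP and TAZ, is also a target of theirs. It stood at 12.5, 11.1 and 7.71 CPM in the lone control and at 21.1, 17.4 and 16.9 CPM in the lone knockout. It rose 1.77-fold (log2 0.82, SE 0.23, edgeR adjusted p = 0.00913), and the call was lost without replicate 3 of the lone control, its lowest library (log2 0.61, edgeR adjusted p = 0.0559). Under co-culture it stood at 11, 11.3 and 10.1 CPM in the control and at 11.1, 10.3 and 17.0 CPM in the knockout, which overlapped (log2 0.25, SE 0.23, edgeR adjusted p = 0.396). That sign turned to -0.01 without replicate 3 of the knockout.

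AXL (ENSG00000167601; chromosome 19, 41219203 to 41261766, plus strand) encodes a receptor tyrosine kinase for GAS6 that is high in mesenchymal carcinoma cells. It stood at 67.0, 66.5 and 69.6 CPM in the lone control and at 486, 515 and 525 CPM in the lone knockout (log2 2.91, SE 0.14, edgeR adjusted p = 4.89e-09). Under co-culture it stood at 68.3, 91.9 and 82.3 CPM in the control and at 387, 377 and 341 CPM in the knockout (log2 2.19, SE 0.14, edgeR adjusted p = 4.90e-08). Exons of YAP1, WWTR1, CCN2, AMOTL2 and AXL overlap another annotated gene, and whether counting used the strand is not given in the sources used here, so some of their counts may belong to those genes.

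Ordered per kilobase, TEAD4 was the most abundant member in the lone control (26.3 ± 4.10 CPM per kilobase, SD, n = 3), then AXL (13.1 ± 0.323). CCN1 (7.50 ± 0.744), AMOTL2 (6.21 ± 0.887), YAP1 (6.14 ± 1.39), WWTR1 (5.52 ± 1.23) and CCN2 (4.80 ± 0.231) followed, and each neighbour among AMOTL2, YAP1, WWTR1 and CCN2 differed by less than its spread. TEAD1 (1.96 ± 0.927) and LATS2 (1.87 ± 0.445) could not be told apart, and ANKRD1 was lowest (0.252 ± 0.059). In the lone knockout the order began with AXL (98.7 ± 3.86), CCN1 (62.1 ± 1.98), CCN2 (51.3 ± 2.55) and AMOTL2 (38.9 ± 1.10). TEAD4 (17.3 ± 3.21), WWTR1 (12.2 ± 0.368), TEAD1 (9.52 ± 1.94) and YAP1 (6.13 ± 1.23) came next, and ANKRD1 (3.32 ± 0.713) and LATS2 (3.31 ± 0.417) were level. In the co-cultured knockout CCN1 (74.4 ± 5.55) and AXL (71.5 ± 4.75) were within their spread, ahead of CCN2 (34.9 ± 1.76) and AMOTL2 (30.5 ± 0.855).

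Co-cultured knockout cells were next set against lone ones, since the series text says that proliferation returned in co-culture. In the fit of all 12 libraries TEAD1, WWTR1, CCN2 and AXL fell in co-culture, TEAD1 with a log2 fold change of -2.00 and the others between -0.47 and -0.71, and no member rose. CCN1 and ANKRD1 were above their lone level by 0.26 and 0.68 without passing the test. Of all genes 11.4% were called, 5.97% higher and 5.4% lower, beside 0 members higher and 4 lower. Scaled by library size only, the split of all called genes was 989 higher and 431 lower in place of 1001 and 906. The median log2 fold change was -0.50 over the members and 0.01 over all genes, and groups did not overlap for 6 members and 31.5% of all genes. These calls moved with single libraries and settings: 0 members were called without replicate 1 of the lone knockout or without replicate 1 of the co-cultured knockout, 5 without replicate 3 of the co-cultured knockout, 8 with GC offsets and 1 when only these 6 libraries were fitted. Across genes the rank correlation of GC with the log2 fold change in this comparison was 0.433, and 0.0106 with GC offsets. The part of this trend in the members' differences was not tested.

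TEAD1 fell from 79.9 to 119 CPM in the lone knockout to 12 to 43.5 CPM in co-culture, 4-fold (SE 0.44 on the log2 scale, edgeR adjusted p = 0.0149), with no overlap. It was called in 17 of 20 alternative settings, and without replicate 3 of the co-cultured knockout its log2 fold change was -2.70. The co-cultured levels of replicates 1 and 2 lay within the range of the control libraries, and replicate 3 lay above it. WWTR1 stood at log2 -0.71 (SE 0.20, edgeR adjusted p = 0.0423), called in 8 of 20 settings. YAP1 had the same log2 fold change of -0.71 with a larger error (SE 0.26, edgeR adjusted p = 0.0964). Without replicate 3, the highest of its group, YAP1 stood at -1.09 (edgeR adjusted p = 0.00205).

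CCN2 was 1.47-fold lower in co-culture (log2 -0.55, SE 0.13, edgeR adjusted p = 0.0212), called in 15 of 20 settings. AXL was 1.38-fold lower (log2 -0.47, SE 0.13, edgeR adjusted p = 0.0395), called in 7 of 20, with no overlap between groups. AMOTL2 was lower in each co-cultured library than in any lone one but missed the threshold (log2 -0.35, SE 0.13, edgeR adjusted p = 0.0882). LATS2 also missed it (log2 -0.53, SE 0.23, edgeR adjusted p = 0.144), and without replicate 3 of the co-cultured knockout it was called (-0.78, edgeR adjusted p = 0.0128). TEAD4 stood at log2 -0.12 (SE 0.17, edgeR adjusted p = 0.669), slightly above 0 without the filter on low counts (0.01), and was called with GC offsets (-0.35, edgeR adjusted p = 0.0207). CCN1 was higher in each co-cultured library than in any lone one, yet its difference was not called (log2 0.26, SE 0.12, edgeR adjusted p = 0.158). ANKRD1 overlapped between the groups (log2 0.68, SE 0.25, edgeR adjusted p = 0.0928), and with GC offsets the log2 fold change was 1.10 (edgeR adjusted p = 0.00024). The 5 targets thus did not share a sign in co-culture: CCN1 and ANKRD1 were above 0, and CCN2, AMOTL2 and AXL below it. Of these only CCN2 and AXL were called. CCN1 was also above 0 between co-cultured and lone control (log2 0.31, not called), and its interaction was -0.05 (edgeR adjusted p = 0.874).

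**Figure D3:**
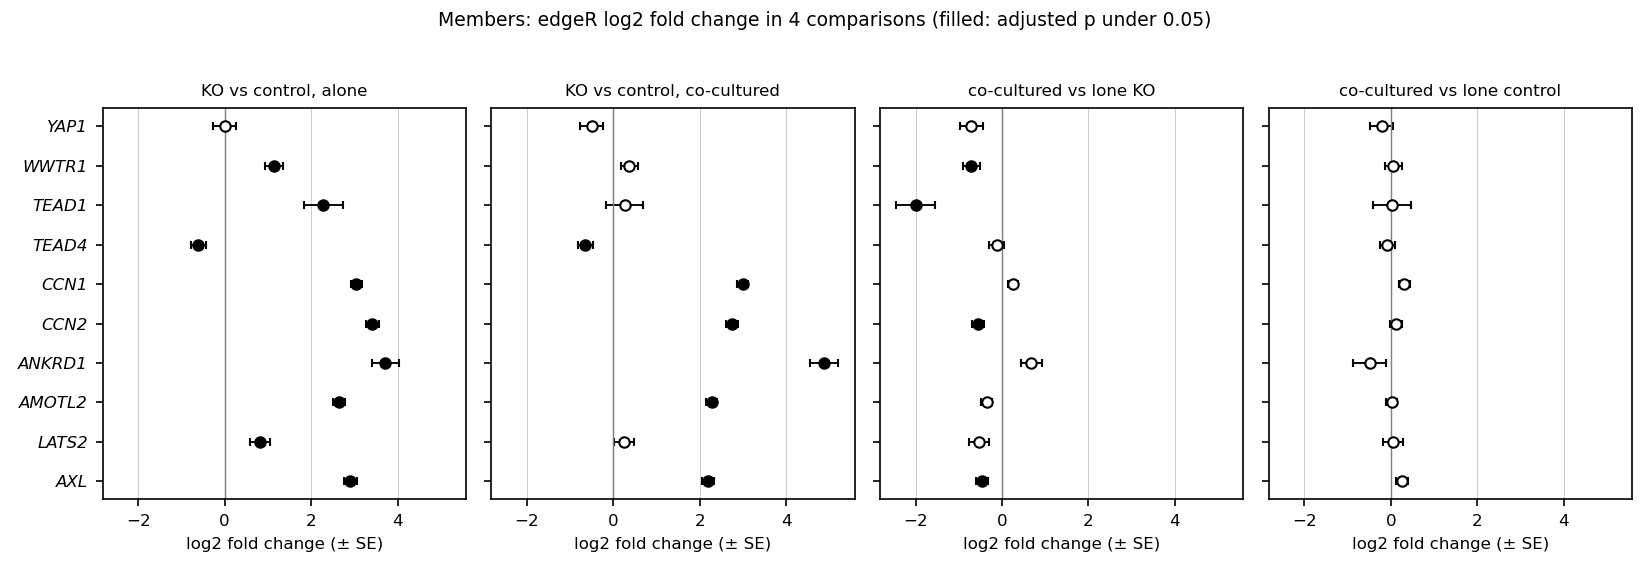
Log2 fold change of each gene in 4 comparisons, with its SE. Filled points passed edgeR at an adjusted p under 0.05. In both comparisons of knockout with control the 5 targets CCN1, CCN2, ANKRD1, AMOTL2 and AXL lie above 2. Between co-cultured and lone knockout TEAD1 lies farthest from 0, at -2.00, and between the control groups no point is filled.

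Between co-cultured and lone control cells 0% of all genes were called by edgeR, with 540 genes at an unadjusted p under 0.05, and DESeq2 also called 0. No member was called, and 1 member, CCN1, had an unadjusted p under 0.05 (log2 0.31, SE 0.12, edgeR adjusted p = 1). CCN1 was also the 1 member whose groups did not overlap, against 7.39% of all genes. The member farthest from 0 was ANKRD1 (log2 -0.48, SE 0.38), at 5 to 11 counts per library, and the median over the members was 0.03.

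The interaction asks whether knockout and control cells changed unequally in co-culture. It was called for 1.8% of all genes, 1.51% higher and 0.286% lower, and for 0 members, of which 5 had an unadjusted p under 0.05. The split of 253 higher and 48 lower genes became 689 and 685 with GC offsets, 546 and 284 with DESeq2, and 1201 and 2422 without replicate 3 of the co-cultured knockout. The rank correlation of GC with the interaction was 0.535 across genes, and 0.0258 with GC offsets. DESeq2 called 1 member, TEAD1 (log2 -1.99, DESeq2 adjusted p = 0.0175). In edgeR TEAD1 stood at -2.02 (SE 0.62, adjusted p = 0.131), and without replicate 3 of the co-cultured knockout it was called (-2.73, edgeR adjusted p = 0.00298). AXL stood at -0.72 (SE 0.19, edgeR adjusted p = 0.0758) and was called with GC offsets (-1.05, edgeR adjusted p = 0.000894) and with library size only (-0.84, edgeR adjusted p = 0.0234). CCN2 stood at -0.67 (SE 0.19, edgeR adjusted p = 0.108). With GC offsets, and likewise without replicate 3 of the co-cultured knockout, 5 members were called.

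The rest of the pathway was read from a list of 26 further genes, of which 24 were tested and VGLL1 and VGLL2 were too low. In lone knockout against control 9 were higher and 3 lower, beside 28% and 28.6% of all genes, with a median log2 fold change of 0.69 against 0.09 over all genes. In co-culture 6 were higher and 4 lower, beside 24.1% and 25.3% of all genes, with medians of -0.00 and -0.02. VGLL3, a TEAD cofactor of the vestigial-like family, had the highest fold change, from 0.219 to 2.29 CPM in the lone control to 9.49 to 14.4 CPM in the lone knockout (log2 3.59, SE 0.70, edgeR adjusted p = 0.000765). Without replicate 1 of the lone control, its highest library, the log2 fold change was 5.26. FRMD6, a FERM protein that acts upstream of the kinases, rose by 2.97 (SE 0.39, edgeR adjusted p = 3.47e-05), the kinase TAOK1 by 1.78 (edgeR adjusted p = 0.0103), and PTPN14, a phosphatase that binds YAP, by 1.52 (edgeR adjusted p = 0.00031). The lower genes were TEAD2, TEAD3 and the kinase TAOK2 (log2 -0.50, edgeR adjusted p = 0.0271), whose sign turned with GC offsets (0.19) and whose call was lost without replicate 2 or 3 of the lone control or replicate 1 or 2 of the lone knockout.

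The core kinases STK3, STK4 and LATS1 were mostly not called, and their errors were wide (SE 0.29 to 0.46). In lone cells STK4 (log2 0.69, SE 0.30), LATS1 (0.78, SE 0.46), NF2 (0.12, SE 0.13), STK3 (-0.01, SE 0.31, above 0 with library size only at 0.14) and VGLL4 (-0.29, SE 0.13, above 0 with GC offsets at 0.34) were not called by edgeR, with adjusted p-values from 0.0638 to 0.985. With GC offsets STK3 was called as lower (-0.60, edgeR adjusted p = 0.00648), and without replicate 3 of the co-cultured knockout, which enters the shared spread, STK4 and LATS1 were called (edgeR adjusted p = 0.00819 and 0.0417). NF2 was called as higher in 2 of 20 settings. In co-culture STK3 was lower in the knockout (log2 -0.80, SE 0.31, edgeR adjusted p = 0.0468, called in 9 of 20 settings), as was LIMD1, an Ajuba family adaptor (-0.41, SE 0.12, edgeR adjusted p = 0.0136). AJUBA itself (1.47), VGLL3 (2.94), FRMD6 (1.77) and WWC3 (0.81), a KIBRA family protein, were higher there, with edgeR adjusted p-values from 1.78e-05 to 0.00362, and VGLL3 stood at 2.20 without replicate 3 of the co-cultured knockout. VGLL4 was higher too (0.39, SE 0.13, edgeR adjusted p = 0.0251, called in 13 of 20 settings). LATS1 (-0.37, SE 0.46), NF2 (-0.30, SE 0.13) and STK4 (-0.04, SE 0.29, above 0 with library size only at 0.03) were not called, with edgeR adjusted p-values of 0.528, 0.0806 and 0.913. Without replicate 3 of the co-cultured knockout LATS1 was called (-1.19, edgeR adjusted p = 0.0154). NF2 was called as lower in 4 of 20 settings, and its groups did not overlap.

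Between co-cultured and lone knockout 1 pathway gene rose and 3 fell, beside 11.4% of all genes called. This count of 4 ran from 2 to 14 when single libraries were left out, the highest without replicate 3 of the co-cultured knockout. VGLL4, a repressor that competes with YAP for TEADs, rose by 0.59 (SE 0.13, edgeR adjusted p = 0.0151, called in 14 of 20 settings). PTPN14 fell from 65.5 to 87.4 CPM to 17.9 to 36.5 CPM (log2 -1.64, SE 0.26, edgeR adjusted p = 0.0021), where it differed from the co-cultured control by log2 -0.01 (SE 0.26). MOB1B, the LATS activator, fell by 1.68 (SE 0.44, edgeR adjusted p = 0.0309, called in 12 of 20 settings, -2.36 without replicate 3 of the co-cultured knockout) and LIMD1 by 0.67 (SE 0.12, edgeR adjusted p = 0.00479). LATS1 (-1.37, SE 0.46, edgeR adjusted p = 0.073), STK3 (-0.55, 0.254), STK4 (-0.64, 0.162), NF2 (-0.34, 0.106), TEAD2 (0.33, 0.321) and TEAD3 (0.25, 0.362) were not called. Without replicate 3 of the co-cultured knockout LATS1 (-2.18), STK4 (-1.11) and STK3 (-0.92) were called as lower, at edgeR adjusted p-values of 0.000785, 0.0023 and 0.0247. NF2 was called as lower in 3 of 20 settings, and its groups did not overlap. No pathway gene was called between the control groups. For the interaction 0 were called, and 11 without replicate 3 of the co-cultured knockout.

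The list of 15 further targets came from a published signature of YAP and TAZ activity and was chosen with results of these data known. It leaves out the members and PTPN14, which is counted among the pathway genes above. In the lone knockout 14 were higher and 1 lower than in the control, beside 28% and 28.6% of all genes, with a median log2 fold change of 1.83 against 0.09 over all genes. TGFB2, a growth factor that drives matrix genes, stood at 2.02 to 4.59 CPM in the lone control and 65.3 to 82.0 CPM in the lone knockout (log2 4.30, SE 0.34, edgeR adjusted p = 3.77e-07). CRIM1 (3.11), CCDC80 (3.0) and IGFBP3 (2.81) followed, with edgeR adjusted p-values from 2.03e-08 to 2.31e-06. F3, tissue factor, was the 1 lower gene (log2 -1.47, SE 0.33, edgeR adjusted p = 0.00208). In co-culture 11 were higher and 1, F3 (-1.18, edgeR adjusted p = 0.0071), lower in the knockout, beside 24.1% and 25.3% of all genes. The median was 1.62 against -0.02 over all genes, led by TGFB2 (3.27), IGFBP3 (2.88) and GADD45A (2.29).

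In the co-cultured against the lone knockout 4 of the 15 fell and 1 rose, beside 5.4% and 5.97% of all genes, with a median of -0.43 against 0.01 over all genes. The count of 5 ran from 2 to 7 when single libraries were left out. CCDC80, a secreted matrix protein, stood at 145, 137 and 129 CPM in the lone knockout and at 70.0, 54.8 and 72.2 CPM in co-culture (log2 -1.06, SE 0.16, edgeR adjusted p = 0.00132). ASAP1 (-1.38), CRIM1 (-0.98) and MYOF (-0.92) also fell, with edgeR adjusted p-values of 0.0101, 0.0397 and 0.0292. They were called in 18, 9 and 12 of 20 settings. GADD45A, a stress-response gene that p53 also controls, rose from 66.6 to 81.8 CPM to 125 to 162 CPM (log2 0.86, SE 0.15, edgeR adjusted p = 0.00399). No gene of this list was called between the control groups. For the interaction 1 gene, CCDC80, was called, and 7 genes without replicate 3 of the co-cultured knockout.

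**Figure D4:**
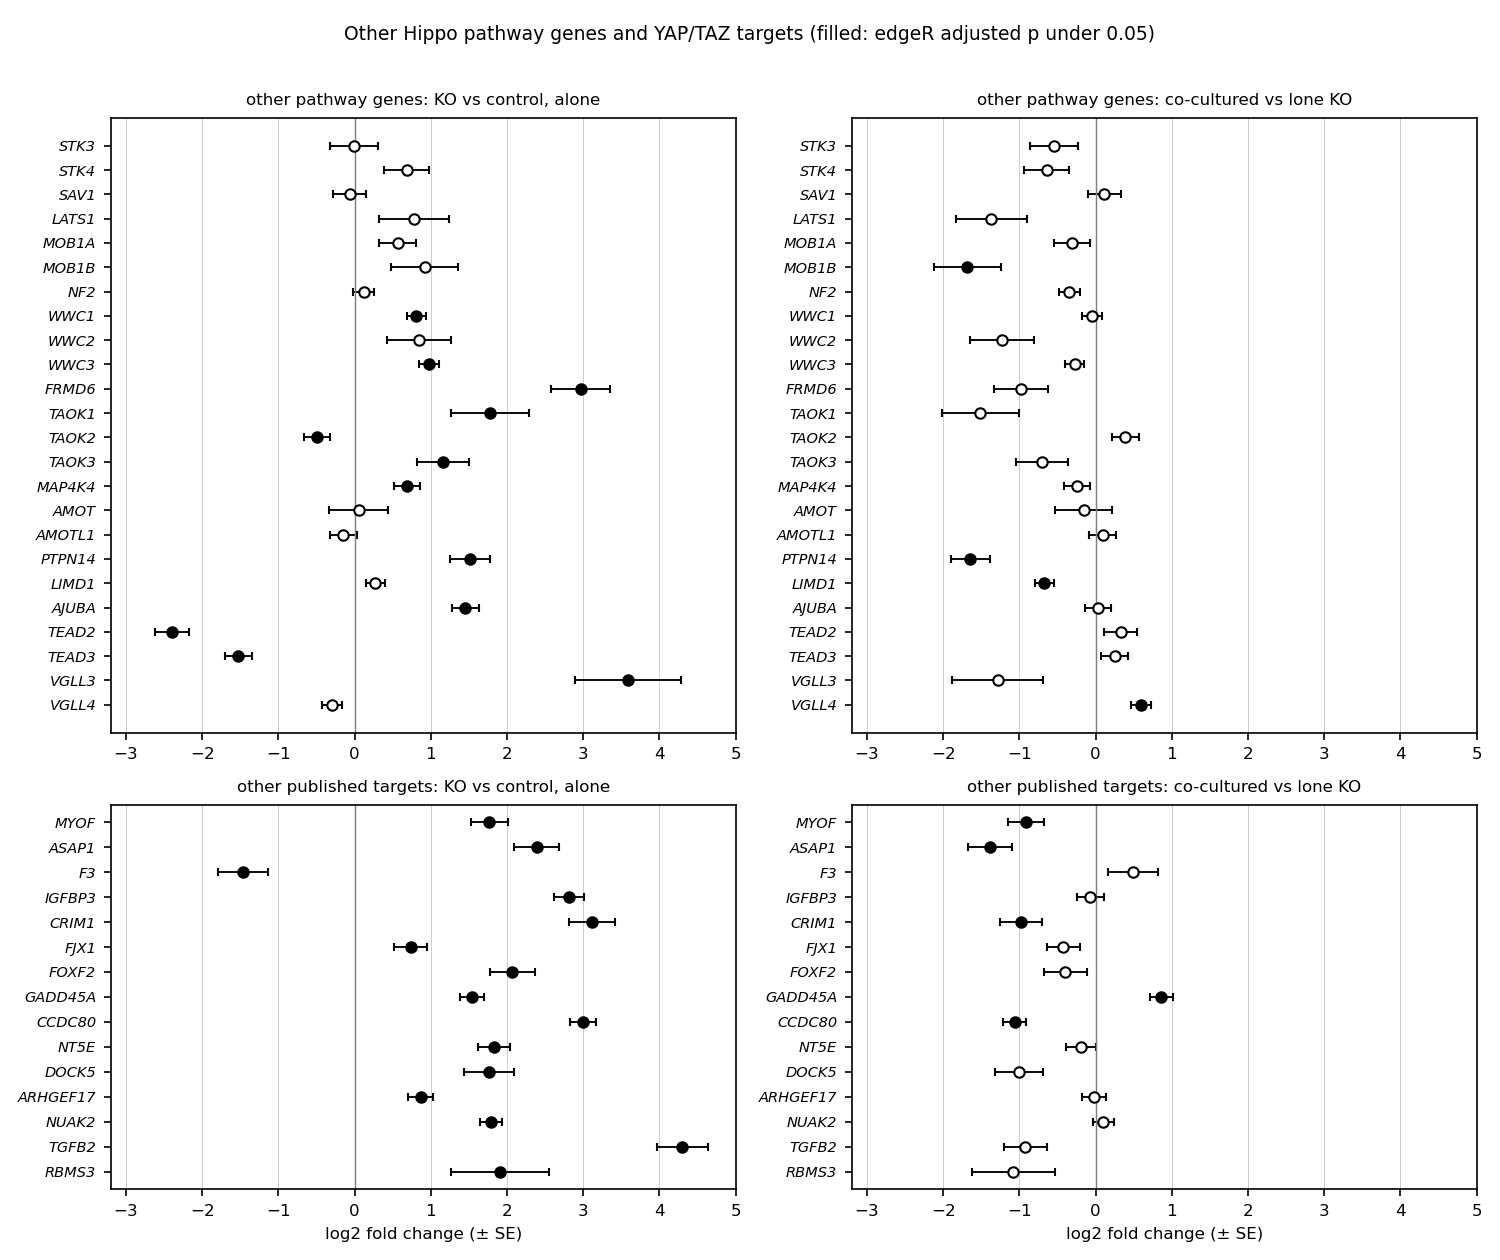
Log2 fold change with SE of the 24 tested pathway genes (top) and the 15 further targets (bottom), for lone knockout against lone control (left) and co-cultured against lone knockout (right). Filled points passed edgeR at an adjusted p under 0.05. On the lower left 14 targets lie above 0 and F3 below, and on the lower right 4 filled points lie below 0 and GADD45A above.

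The genes most like 4 of the members were found by the root mean square (RMS) difference of log2 CPM, each centred on its mean over the 12 libraries, among genes with at least 5 CPM. For CCN1, whose own RMS deviation was 1.52, they were NIPAL4 (0.103), HSPB8 (0.133) and GPX3 (0.176). For CCN2 (1.56) they were EFR3B (0.161), SLIT3 (0.188) and MYLK (0.191). ANKRD1 (2.05) had EDA2R (0.341), BMPER (0.385) and ANXA8L1 (0.386) as its nearest, the last uncertain because it has a near-identical copy. For YAP1 (0.434), which varied least, they were NKRF (0.0792), SPTLC2 (0.111) and PPFIBP1 (0.124).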

How the data were processed

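The authors deposited 1 table of raw counts per Ensembl gene for 12 libraries. The submitters' processing notes name FastQC, STAR 2.7.9a, featureCounts, R 4.2.1, DESeq2 1.36.0 and the build GRCh38 (hg38). The annotation and the strand setting are not given in the sources used here. Symbols were found for 42045 identifiers and positions for 58366 in GENCODE 29.

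The counts went into edgeR 4.0.16 (R 4.3.3, limma 3.58.1): filterByExpr (16768 genes), TMM, 1 model of 4 group means, robust quasi-likelihood test, Benjamini-Hochberg adjustment over all genes, called at an adjusted p under 0.05. The biological coefficient of variation was 22.1%. No library repeated another. Alternatives were RLE or library size scaling, no filter, DESeq2 1.42.0, a replicate block, GC offsets, a fit of the compared groups alone, and leaving out each library.

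Members and lists were chosen with earlier results of these data known. Named were all members, TYMS, TEAD2, TEAD3, LATS1, NF2, STK3, STK4, VGLL4, and per comparison up to 4 called genes in each direction of each list. TEAD and WWTR1 shares were added after the values were seen.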

Additional observations from a re-analysis of the deposited data

Results flagged for a closer look

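The co-culture difference of CCDC80, a secreted matrix protein from the list of further targets, differed between knockout and control cells by edgeR's interaction test (log2 -1.01, SE 0.22, edgeR adjusted p = 0.0409). In the control CCDC80 stood at 20.4, 14.4 and 16.8 CPM alone and at 14.4, 17.1 and 18.1 CPM in co-culture. The interaction was called in 4 of 19 alternative settings, with values from -1.14 to -0.60.

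The co-culture difference of TYMS also differed between knockout and control by the same test (log2 -0.89, SE 0.15, edgeR adjusted p = 0.0107). The TYMS interaction was called in 18 of 19 alternative settings, with values from -1.01 to -0.78. TYMS stood at 20.3, 21 and 21.4 CPM in the lone knockout and at 11.4, 11 and 10.7 CPM in the co-cultured knockout. Within the knockout this fall was called (log2 -0.92, SE 0.11, edgeR adjusted p = 0.000307), also in 20 of 20 alternative settings. Both interaction results set knockout against labelled control cells, where a difference of line and the guide cannot be told apart.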

How the results depend on the processing

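The differences of CCN1, CCN2, ANKRD1, AMOTL2, AXL, TEAD2 and TEAD3 between knockout and control, alone and in co-culture, kept their direction and their call in all 20 alternative settings. For the other values the cause of a change was not tested, apart from fewer libraries where libraries were left out.

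The labels do not say that replicate numbers pair libraries. Of 18 same-numbered pairs, 7 had deviations correlated above 0.1 (range -0.603 to 0.491), 6 of them the pairs of replicate 1 and of replicate 3 among lone control, co-cultured control and lone knockout (0.189 to 0.491). No 2 groups had all 3 pairs above 0.1, so the block was not used in the fit reported, and in 7 of the 18 the library correlated best with its own number in the other group. With a replicate block 1080 genes and 2 members were called between co-cultured and lone knockout, and 179 genes for the interaction. With GC offsets and the block these numbers were 3983, 8 and 824, with 4 members for the interaction.

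Between co-cultured and lone knockout, 1907 genes were called in the fit reported. This became 3340 without the filter, 3347 with DESeq2, 4712 with GC offsets and 664 with only the groups compared, and it ran from 536 (without replicate 1 of the co-cultured knockout) to 5680 (without its replicate 3). Members called went from 4 to 8 with GC offsets, to 1 with only the groups compared, and from 0 to 5 when single libraries were left out. For the interaction the 301 genes became 1342 without the filter, 830 with DESeq2 and 1374 with GC offsets, and from 119 (without replicate 2 of the co-cultured control) to 3623 (without replicate 3 of the co-cultured knockout). The 0 members called became 1 with library size only, without the filter and with DESeq2, 5 with GC offsets, and 0 to 5 when single libraries were left out. Between the control groups 2 genes were called without the filter. Library size scaling shifted the median over all genes tested (log2) from 0.09 to 0.24 in lone knockout against control and from 0.01 to -0.11 in the interaction. Fold changes are relative to TMM.

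Signs turned for these log2 fold changes of knockout against control. Alone, GC offsets gave 0.32 for TEAD4, 0.19 for TAOK2 and 0.34 for VGLL4 (with the replicate block 0.32, 0.19 and 0.33), library size only gave 0.14 for YAP1 and 0.14 for STK3, and leaving out single libraries gave -0.20 to 0.12 for YAP1 and -0.14 to 0.16 for STK3. In co-culture STK4 was 0.030 with library size only and 0.027 without the filter, and single libraries moved it from -0.51 to 0.18, TEAD1 from -0.44 to 0.57, LATS2 from -0.0064 to 0.36 and LATS1 from -1.19 to 0.030. Between co-cultured and lone knockout TEAD4 was 0.014 without the filter and ran from -0.25 to 0.0058 over single libraries. The members' differences between the control groups, none of them called, changed sign in 14 of 199 values, and those of the interaction in 12 of 190. Genes at the depth of ANKRD1 in control libraries are limited by counting error.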
